A study of Mus musculus with 6 samples.

Results

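The genes described here are 10 that carry out or control de novo lipogenesis, the making of fatty acids from the carbon of sugars and acetate. They are the enzymes Acly, Acss2, Acaca, Fasn, Scd1, Scd2 and Me1, the lipogenic protein Thrsp, and the transcription factors Srebf1 and Mlxipl. The genes were chosen with earlier results of these data known. Every probe set to which the array annotation gives a single one of these symbols was taken, without regard to its values. This gave 20 probe sets of the 20380 with a single gene symbol, and 10 genes of 12393. The tissue was white fat from mice aged 8 weeks, on a mixed background of C57BL6 and 129, after 4 days in the cold at 4 °C. All mice carried floxed Yy1 alleles (YY1flox/flox). The 3 control samples came from mice with these alleles and no Cre named in the labels, and the 3 YY1aKO samples from mice that also carried Adiponectin Cre. That Cre is driven by the promoter of an adipocyte gene, so the stromal, vascular and immune cells of the tissue are expected to keep Yy1, a transcription factor that can activate or repress genes. Effects of Cre itself and of losing Yy1 cannot be told apart here. The labels disagree on the depot, which is epididymal (EWAT) in the titles, visceral in the tissue field and subcutaneous in the descriptions.

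In lipogenesis, ATP-citrate lyase (Acly) splits citrate exported from mitochondria into acetyl-CoA and oxaloacetate, and acetyl-CoA synthetase (Acss2) makes acetyl-CoA from acetate. Acetyl-CoA carboxylase 1 (Acaca) turns it into malonyl-CoA, and fatty acid synthase (Fasn) builds palmitate from these units with NADPH, part of which comes from malic enzyme (Me1). The stearoyl-CoA desaturases Scd1 and Scd2 then place a double bond in the product. SREBP-1 (from Srebf1) and ChREBP (from Mlxipl) switch these genes on, the first under insulin and the second under glucose, and both are made in inactive form, so that their mRNA level is only part of their control. Thrsp, or Spot 14, is a small protein that rises with lipogenesis in fat, liver and mammary gland. Cold is known to raise lipogenesis in brown and beige fat together with fat burning.

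Each sample was measured on its own 1-colour Affymetrix array, and a value is the intensity of a probe set on a linear scale. All differences subtract control from YY1aKO in log2 units, and come with the standard error (SE) of limma, 3 samples a group. The brightest probe set (by mean over arrays) stood for its gene, and the 7436 genes of the upper 60% by mean intensity were tested with Benjamini-Hochberg adjustment and a threshold of 0.05. A second limma fit took each of 22626 probe sets on its own with no filter, and adjusted p values of a further probe set of a gene are from that fit. The labels do not say that the samples came from separate animals. Each p value weighs the group difference against the spread among samples within groups. That spread may be technical, and the number of arrays limits how precisely it is known. Yy1 itself read 1596 to 1846 in control and 315 to 373 in YY1aKO. Median intensities were 134 to 140 on the 6 arrays.

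Control replicate 2 stood apart, with Pearson correlations across genes of 0.812 to 0.890 with the other arrays, which correlated with each other at 0.902 to 0.990. Of 12 listed epididymis markers 5 were measured, and their summed intensity was 91291 in control 2, 148 and 834 in controls 1 and 3, and 159 to 171 in YY1aKO. Lcn8 read 28166 in control 2 and 49.2 to 59.9 elsewhere, and Gpx5 read 21047 in control 2 and 639 in control 3. Of 15 white adipocyte markers 13 were measured, and none of the 13 tested passed with 6 arrays, while 1 was lower without control 2. Their sum was 99573 in control 2, 154345 and 167839 in the other controls, and 140777 to 147002 in YY1aKO. Adipoq, the hormone whose promoter drives the Cre, was bright on every array (18586 to 24774 over controls, 19767 to 21714 over YY1aKO), as was the fatty acid carrier Fabp4 (24527 to 30322). In control 2 the median white adipocyte marker lay below the mean of controls 1 and 3 by a log2 difference of -1.18. In a tissue sample, fewer adipocytes and less RNA per adipocyte cannot be told apart. The 8 markers of mammary or other epithelium summed to 13041 in control 2, 1075 and 4211 in the other controls and 543 to 907 in YY1aKO. None of the 3 tested passed with 6 arrays, and 2 were lower without control 2. The 6 skeletal muscle markers summed to 276 to 339 over controls but 1299 to 2130 over YY1aKO, where the 1 tested was higher. The 4 measured hepatocyte markers stayed at 172 to 223 in all. Of the macrophage, endothelial, preadipocyte and mesothelium lists no gene tested passed with 6 arrays. Without control 2, 1 of 7, 2 of 5, 4 of 6 and 1 of 4 tested were lower. Of all genes tested, 12.9% were higher and 7.8% lower with 6 arrays, and 19.6% were lower without control 2. The part of the listed cell types in the lipogenesis values was not tested. Because of control 2, most comparisons are also given without control 2, as 2 control against 3 YY1aKO arrays. Differences not marked in this way are with all 6 arrays.

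With all 6 arrays, Fasn was the 1 lipogenesis gene of 9 tested that rose, and none fell. Among all genes tested, 12.9% passed as higher. At an unadjusted p under 0.05 the limma count was 4 higher and 0 lower, against 22.2% of all genes tested as higher. Of the 20 probe sets, 2 rose, those of Fasn and the dimmer one of Scd1, against 6.54% of all probe sets, and none fell (10 higher and 0 lower at an unadjusted p under 0.05, against 16.7% of all probe sets as higher). Without control 2, 5 of the 9 genes were called higher (Acly, Acss2, Fasn, Scd2 and Me1), against 25.5% of all genes tested, and none lower, also at an unadjusted p under 0.05. For the probe sets the count was then 8 of 20, against 13.9% of all probe sets. The median difference of the 9 genes was 0.73, or 0.80 without control 2, beside 0.06 and 0.03 for all genes tested. In 5 of the 9 tested genes every YY1aKO array read above every control array, a pattern found in 27.9% of all genes tested.

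**Figure D1:**
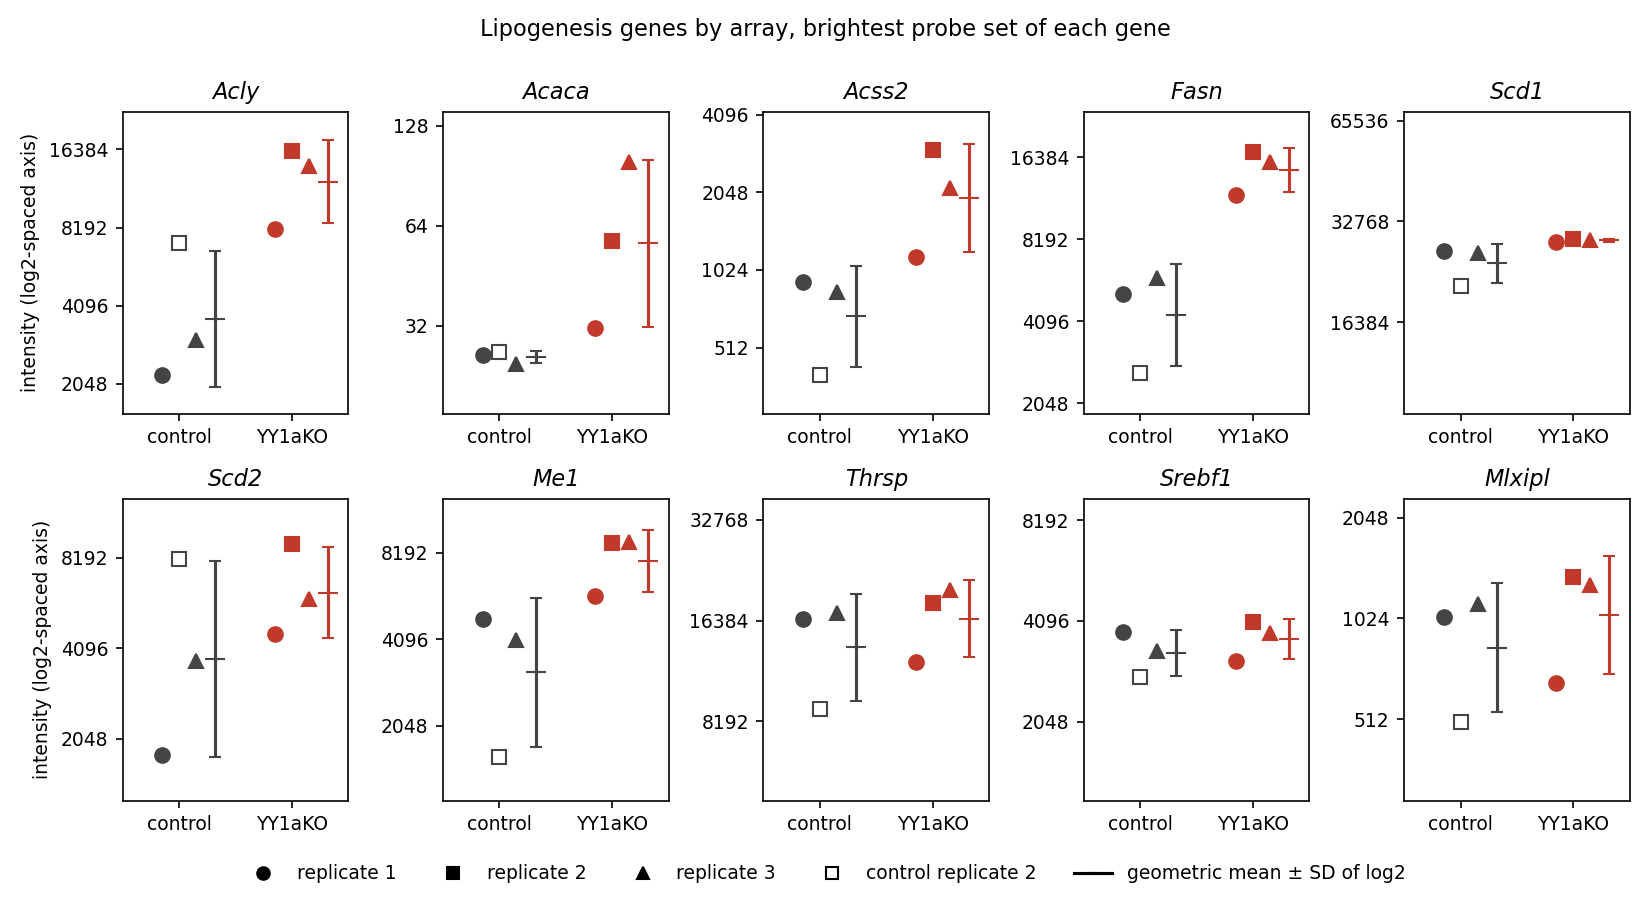
Intensity of the brightest probe set of each of the 10 lipogenesis genes on each array, on a log2-spaced axis whose range differs between panels; circles, squares and triangles are replicates 1, 2 and 3, the open square is control replicate 2, and bars give the geometric mean ± SD of the log2 values (n = 3). Control 2 is the highest control for Acly, Scd2 and Acaca and the lowest for 7 genes, and YY1aKO replicate 1 is the lowest YY1aKO array in all 10 panels.

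Fasn encodes the enzyme that joins malonyl-CoA units into palmitate. It read 5149, 2649 and 5897 for controls 1 to 3, then 11950.4, 17081 and 15768.5 for YY1aKO 1 to 3. The lowest YY1aKO value was thus above the highest control. The difference was 1.77 ± 0.33, or 3.42-fold, with a 95% interval of 0.97 to 2.58 and an adjusted p of 0.019 in limma. Without control 2 it was 1.42 ± 0.17 (adjusted p = 0.0024). The call ended without YY1aKO 1, 2 or 3 (adjusted p of 0.060, 0.089 and 0.089 in limma), and held without control 1 (0.034) or control 3 (0.048). Calls over all 7436 genes tested also fell, from 1538 to 253, 33 and 24 without YY1aKO 1, 2 or 3.

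Acly and Acss2 are the cytosolic sources of acetyl-CoA. Acly read 2225, 7153 and 3021 on control arrays against 8098, 16217 and 14177 on YY1aKO arrays, so that control 2 came close to the lowest YY1aKO array and the other controls did not. Its difference was 1.76 ± 0.49, or 3.38-fold, and missed the threshold (adjusted p = 0.054 in limma). With control 2 left out Acly was called higher, by 2.25 ± 0.31 (adjusted p = 0.0036). Of its 4 other probe sets, 1425326_at read 517, 1678 and 605 on control arrays against 2092, 6535 and 4510.3 on YY1aKO arrays, with a difference of 2.29 ± 0.59 (adjusted p = 0.064). The set 1439459_x_at differed by 1.60 ± 0.46 (adjusted p = 0.082). Without control 2 both passed, with 2.82 ± 0.45 (adjusted p = 0.0084) and 2.07 ± 0.26 (adjusted p = 0.0042). The last pair, 1438389_x_at and 1439445_x_at, read 6.68 to 10.3 on all arrays, near the lowest reading of the table (6.09), and differed by 0.28 and 0.05. The 5 sets thus gave like differences where they were bright and next to none at the bottom of the scale.

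Acss2 read 917, 402 and 839 on control arrays against 1154, 2975 and 2135 on YY1aKO arrays. The groups did not overlap, but YY1aKO 1 lay nearer to the controls than to the other YY1aKO arrays. The difference was 1.52 ± 0.46, or 2.87-fold (adjusted p = 0.066 in limma), and its other probe set gave 1.43 ± 0.44. Without control 2 the difference was 1.15 ± 0.38 with an adjusted p just under the threshold (0.0498), while in the fit of all probe sets both sets missed it (adjusted p of 0.072 and 0.077).

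Acaca, whose enzyme catalyses the step that commits acetyl-CoA to fatty acids, had a single dim probe set below the intensity filter of 114. It read 26.2, 26.7 and 24.6 on control arrays against 31.5, 57.6 and 99.8 on YY1aKO arrays. Every YY1aKO array was above every control, and YY1aKO 1 by the least. The difference was 1.13 ± 0.40 (adjusted p = 0.14 in the limma fit with no filter, and 0.12 without control 2). The share of these readings that is background was not measured.

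The promoters of 3 of these genes and of Thrsp, which did not pass in any fit made here, are shown. They let the genes that differed most by their brightest probe set be set beside a lipogenic gene that did not pass. Each is the 250 bases before an annotated start, 5′ to 3′ on the gene's strand, from RefSeq in build GRCm38.p6, with matches to CCAAT and GGGCGG on either strand in capitals. The CCAAT box is bound by NF-Y and the GC box by Sp1, factors known to work with SREBP. Fasn lies on the minus strand of chromosome 11 (chr11:120824548-120824797), Acly on the minus strand of the same chromosome (chr11:100528001-100528250), Acss2 on the plus strand of chromosome 2 (chr2:155517793-155518042) and Thrsp on the minus strand of chromosome 7 (chr7:97417551-97417800).
Fasn: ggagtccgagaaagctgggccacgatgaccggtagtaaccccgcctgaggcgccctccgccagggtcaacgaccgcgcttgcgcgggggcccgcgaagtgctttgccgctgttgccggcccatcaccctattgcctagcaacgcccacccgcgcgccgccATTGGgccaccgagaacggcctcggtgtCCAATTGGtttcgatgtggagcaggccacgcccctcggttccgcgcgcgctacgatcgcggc
Acly: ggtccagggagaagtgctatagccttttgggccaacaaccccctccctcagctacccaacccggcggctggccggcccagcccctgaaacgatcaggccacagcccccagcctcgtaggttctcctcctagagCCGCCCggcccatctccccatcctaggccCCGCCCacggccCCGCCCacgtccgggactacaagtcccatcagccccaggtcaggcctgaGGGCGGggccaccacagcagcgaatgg
Acss2: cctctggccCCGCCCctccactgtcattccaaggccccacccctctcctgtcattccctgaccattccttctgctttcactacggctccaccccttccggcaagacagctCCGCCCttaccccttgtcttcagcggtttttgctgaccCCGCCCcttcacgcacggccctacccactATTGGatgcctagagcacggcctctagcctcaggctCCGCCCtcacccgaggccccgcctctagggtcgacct
Thrsp: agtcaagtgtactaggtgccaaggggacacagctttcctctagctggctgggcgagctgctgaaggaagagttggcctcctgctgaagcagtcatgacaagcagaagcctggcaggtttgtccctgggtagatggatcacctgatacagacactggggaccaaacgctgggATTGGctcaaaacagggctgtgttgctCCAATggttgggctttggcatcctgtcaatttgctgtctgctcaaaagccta

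In the Fasn window the matches to CCAAT begin 90, 62 and 59 bases before the start, the last of these overlapping each other, and there is none to GGGCGG. Acly has 4 matches to GGGCGG and none to CCAAT. Acss2 has 4 and 1, and Thrsp has none to GGGCGG and 2 to CCAAT, 79 and 52 bases before its start. Of the 10 genes 8, all but Scd1 and Scd2, matched the RefSeq promoter table, with 12 windows in all since some have several starts. CCAAT was in 7 of the 12 windows and in 33.8% of all 32851 windows of this length, and GGGCGG in 6 of the 12 and in 32.7%. The E-box CACGTG and the sterol regulatory element TCACNCCAC were each in 1 of the 12, at different starts of Mlxipl, and in 6.02% and 1.05% of all windows. CCATNTT, a form of the YY1 motif, was in 0 of the 12 and in 12.4% of all windows. All motifs were searched on both strands. A match is a description of these letters and not evidence of binding, and the windows are short.

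Scd1 and Scd2 encode stearoyl-CoA desaturases, Scd1 being the main form of mature adipocytes. The 2 probe sets of Scd1 gave unlike differences. The brighter, 1415964_at, read 26720, 20998 and 26280 on control arrays against 28455, 28972 and 28768 on YY1aKO arrays, and was among the 14 brightest probe sets on every array. The highest reading of the whole table was 30322. Signals near the top of the scale can be compressed, and whether that bears on this set was not tested. Its difference was 0.23 ± 0.12 (adjusted p = 0.23 in limma). The dimmer set, 1415965_at, read 3107, 958 and 2397 on control arrays against 7134, 9104 and 8241 on YY1aKO arrays, with no overlap. It rose by 2.08 ± 0.44, or 4.22-fold (adjusted p = 0.039 in the limma fit of all probe sets). Without control 2 the same set differed by 1.57 ± 0.15 (adjusted p = 0.0025), and the bright set by 0.12 ± 0.07 (adjusted p = 0.23). Neither this set nor that of Fasn was called in the fit of all probe sets without control 3 or without any single YY1aKO array. A gene fit that took the dimmest set above the filter level also called Scd1 (adjusted p = 0.026), so whether Scd1 counts as higher turns on the probe set.

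For Scd2 the groups overlapped, with 1805, 8086 and 3704 on control arrays against 4553, 9110.4 and 5955 on YY1aKO arrays. Control 2 was the second highest of the 6 arrays. The difference was 0.73 ± 0.57 (adjusted p = 0.40 in limma), with a 95% interval of -0.67 to 2.13. Without control 2 it was 1.28 ± 0.39 (adjusted p = 0.040), and every YY1aKO array then lay above both controls. In the fit of all probe sets the same set missed the threshold (adjusted p = 0.058). Its other sets, which read 167 to 870 and 20.9 to 93.0, differed by 0.82 and 0.28. Without control 2 the first of these passed (1.35, adjusted p = 0.046 in limma) and the second did not (0.89, adjusted p = 0.083).

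Me1, the cytosolic malic enzyme, read 4800 in control 1, 1594 in control 2 and 4062 in control 3. In YY1aKO it read 5767, 8810 and 8919, each above all controls. The difference was 1.29 ± 0.45, or 2.44-fold (adjusted p = 0.092 in limma). Its second set, at 874 to 3159 in controls and 3863 to 6484 in YY1aKO, gave 1.39 ± 0.52. The 5-array values were 0.80 ± 0.21 and 0.80 ± 0.22, and both passed (adjusted p of 0.026 in the gene fit and 0.044 in the fit of all probe sets).

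The regulators and Thrsp did not pass in either comparison. Srebf1, measured by 1 set, read 3803, 2786 and 3332 on control arrays against 3101, 4056 and 3763 on YY1aKO arrays, and the groups overlapped. Its difference was 0.14 ± 0.16, with a 95% interval of -0.26 to 0.54 (adjusted p = 0.57 in limma), or 0.02 without control 2 with an interval of -0.31 to 0.36. Mlxipl read 1033, 502 and 1133 on control arrays against 658, 1358 and 1288 on YY1aKO arrays, also with overlap. Its difference was 0.32 ± 0.42, and -0.05 ± 0.32 without control 2, with intervals of -0.70 to 1.35 and -0.82 to 0.73. Thrsp was bright and overlapped as well, at 16506, 8930.1 and 17236 on control arrays against 12273, 18457 and 20144 on YY1aKO arrays. Its difference was 0.28 ± 0.32, or -0.02 ± 0.21 without control 2 with an interval of -0.55 to 0.50, and its second set gave 0.34 and -0.11. Among these 3 genes the narrowest interval, that of Srebf1, leaves room for a change of up to 0.54, and those of Mlxipl and Thrsp for a rise of at least 2-fold with all arrays.

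**Figure D2:**
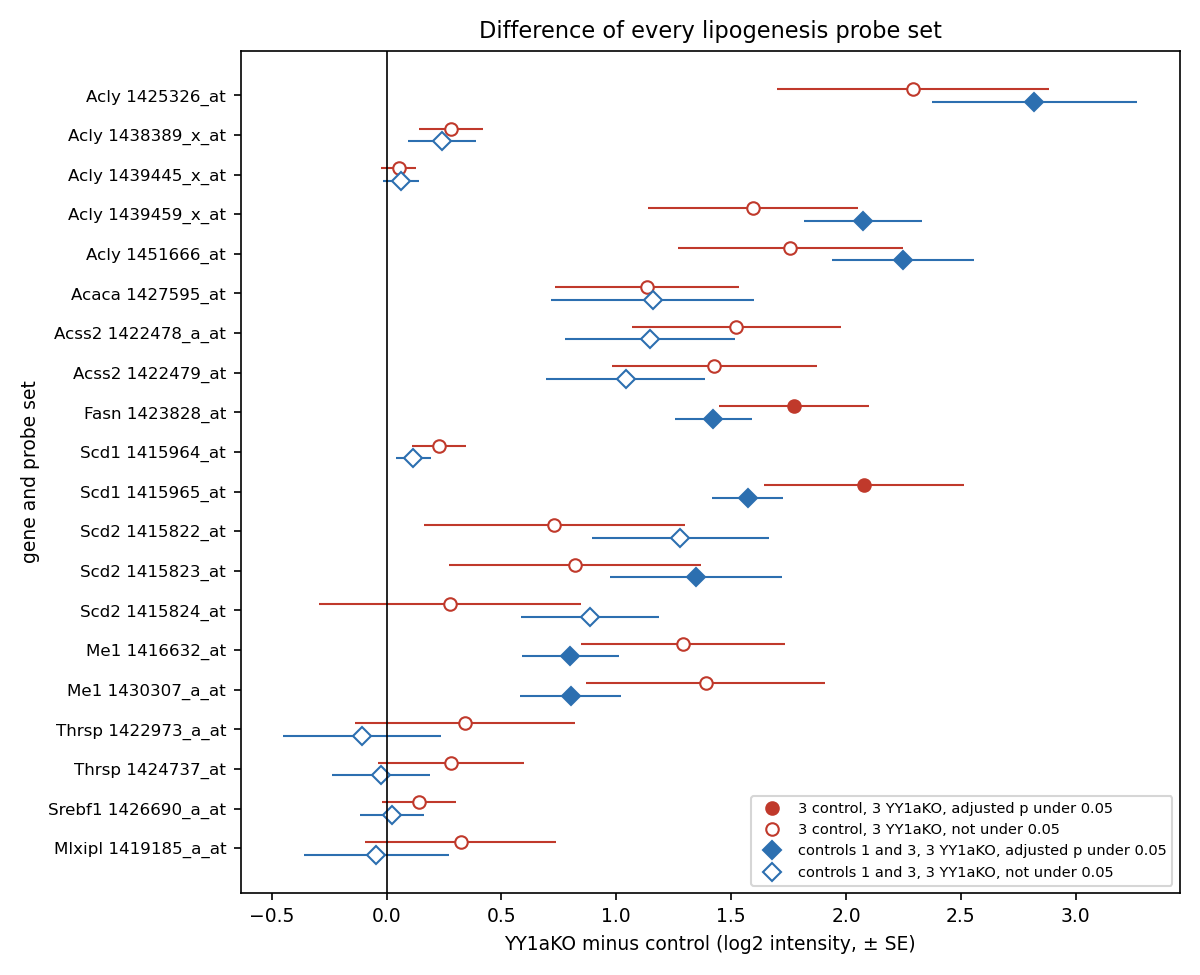
YY1aKO minus control (log2 intensity) with its SE for each of the 20 lipogenesis probe sets, in the fit of all probe sets with 6 arrays (red circles) and without control replicate 2 (blue diamonds); filled symbols have an adjusted p under 0.05. The sets of Fasn and the dimmer set of Scd1 are filled in both, 8 are filled without control 2, and those of Thrsp, Srebf1 and Mlxipl lie between -0.11 and 0.34.

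Within each group 1 array was low for most lipogenesis genes. Control 2 was the lowest control for 7 of the 10 genes, as for 48.6% of all genes tested, and lay below the mean of controls 1 and 3 by log2 differences of -1.06 for Fasn, -1.13 for Acss2, -1.47 for Me1, -1.11 for Mlxipl, -0.92 for Thrsp, -0.34 for Scd1 and -0.35 for Srebf1. The median white adipocyte marker had -1.18. Control 2 was instead higher by 1.46 for Acly and 1.65 for Scd2. The part of adipocyte content or of epididymal RNA in these values was not tested. YY1aKO 1 was the lowest of its group for all 10 genes, against 36.8% of all genes tested, and lay below the mean of YY1aKO 2 and 3 by -0.90 for Acly, -1.13 for Acss2, -0.46 for Fasn and -1.01 for Mlxipl. The summed white adipocyte markers of YY1aKO 1, at 140972, were within the range of its group. Of 9 brown adipocyte markers 7 were measured and 3 tested. Of the 3, Cidea and Cox7a1 rose, against 12.9% of all genes tested, and the other did not pass. Cox7a1 was named after its values were seen. The summed intensity of the 7 was 563 to 1490 in controls and 1476 to 2852 in YY1aKO, the highest being YY1aKO 3, where Ucp1 read 306 against 118 and 67.6 in YY1aKO 1 and 2. Whether brown-like cells bear on the lipogenesis values was not tested.

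Around the 10 genes, 66 other genes of the pathway were tested of 86 listed, 73 of which had a single-gene probe set. Of these 12 were higher and 2 lower, against 12.9% and 7.8% of all genes tested. Without control 2 the counts were 27 and 5, against 25.5% and 19.6%. Their median difference was 0.35, or 0.30 without control 2. Of the 12 that rose, 11 belonged to the lists of chain elongation and of sterol synthesis.

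Of 9 tested genes for elongation, desaturation and activation, 4 rose, against 12.9% of all genes tested, and none fell, with a median of 0.68. At an unadjusted p under 0.05 in limma 4 were higher and 0 lower, against 22.2% of all genes tested as higher. The 4 that rose were Hsd17b12, the ketoreductase of the elongation cycle (1.14 ± 0.26), Tecr, the reductase of its last step (0.72 ± 0.17), and the elongases Elovl1 (0.71 ± 0.14) and Elovl5 (0.68 ± 0.17). Without control 2 the count was 6, against 25.5% of all genes tested. These 4 genes then differed by 0.90, 0.84, 0.57 and 0.51. Tecr read 1174, 1465 and 1101 on control arrays against 1777, 2412 and 1959 on YY1aKO arrays, and Hsd17b12 4343, 2240 and 3163 against 5917, 7361 and 7521, both without overlap. All 4 calls ended without control 3 and without any single YY1aKO array, and those of Tecr and Elovl5 also without control 1. Over all genes tested, calls fell from 1538 to 394 without control 3. Without YY1aKO 1, 2 or 3 they fell to 253, 33 and 24.

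Of 16 tested genes that supply carbon and NADPH, 1 fell and none rose, against 7.8% and 12.9% of all genes tested. At an unadjusted p under 0.05 in limma 3 were higher and 1 lower, against 22.2% of all genes tested as higher. The fall was in Slc2a1, the widely expressed glucose transporter GLUT1, which read 323, 437 and 515 on control arrays against 232, 236 and 219 on YY1aKO arrays (-0.87 ± 0.18, adjusted p = 0.027). Without control 2 its difference was -0.83. With probe sets of unsuffixed names alone its difference was -0.49 and the call was lost (adjusted p = 0.099), as it was without control 3 (0.071) or any single YY1aKO array (0.089 to 0.11). The median of the list was 0.35, or 0.18 without control 2, when 2 were higher and 1 lower, against 25.5% and 19.6% of all genes tested. Among glucose-responsive targets of ChREBP, 1 of 5 rose and 1 fell, against 12.9% and 7.8% of all genes tested. Gpd1, which makes glycerol 3-phosphate, rose by 2.23 ± 0.39, or by 1.27 as the mean of its probe sets, and Khk, the fructokinase, had -0.54 ± 0.14 (adjusted p = 0.049). Without control 2 Gpd1 differed by 1.79 and Khk by -0.44. Both calls ended without control 3 (adjusted p of 0.051 and 0.14 in limma) and without any single YY1aKO array. That of Khk also ended with no filter (0.067 in limma) and with unsuffixed probe sets alone. It was lost as well with renewed quantile normalization, an equal median on every array or an intensity trend. Calls over all genes tested also fell in the fits without control 3 or a YY1aKO array. In the ChREBP list 1 gene was higher and 2 were lower with control 2 left out, against 25.5% and 19.6% of all genes tested.

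The list of upstream regulators holds genes tied to SREBP-1 and ChREBP and related ones such as Srebf2 and Mid1ip1. Of 23 listed, 18 had a single-gene probe set. None of the 17 tested passed, with a median of 0.02. At an unadjusted p under 0.05 in limma 2 were higher and 0 lower, against 22.2% of all genes tested as higher. The pair with the smallest p were Nr1h3, the nuclear receptor LXR alpha that drives Srebf1 (1.16 ± 0.39, adjusted p = 0.088), and Mlx, the partner of ChREBP (0.34 ± 0.13, adjusted p = 0.11). Without control 2, 4 were higher, these 2 among them (0.70 and 0.41), and 2 were lower, against 25.5% and 19.6% of all genes tested. None of 4 tested genes of mitochondrial fatty acid synthesis, a separate pathway that makes lipoic acid, passed in either comparison (0 higher and 0 lower at an unadjusted p under 0.05), and Cbr4 and Mcat came closest, with 0.24 and 0.27.

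Sterol synthesis, driven mainly by SREBP-2, shares acetyl-CoA and NADPH with lipogenesis. Of its 15 tested genes 7 rose, against 12.9% of all genes tested, and none fell. At an unadjusted p under 0.05 in limma 11 were higher and 0 lower, against 22.2% of all genes tested as higher. With control 2 left out 14 were higher, against 25.5%. The count was 5 without control 1, 2 without control 3 or YY1aKO 1, and 0 without YY1aKO 2 or YY1aKO 3. In the same order, calls over all genes tested fell from 1538 to 1336, 394, 253, 33 and 24. The median was 1.33, or 1.67 without control 2, beside 0.73 and 0.80 for the lipogenesis genes. Pmvk (1.87), Idi1 (1.73), Sc5d (1.42) and Hsd17b7 (1.33) had the largest differences among those called. Without control 2 these genes differed by 1.94, 2.19, 1.20 and 1.60. The difference between the lists was not tested.

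**Figure D3:**
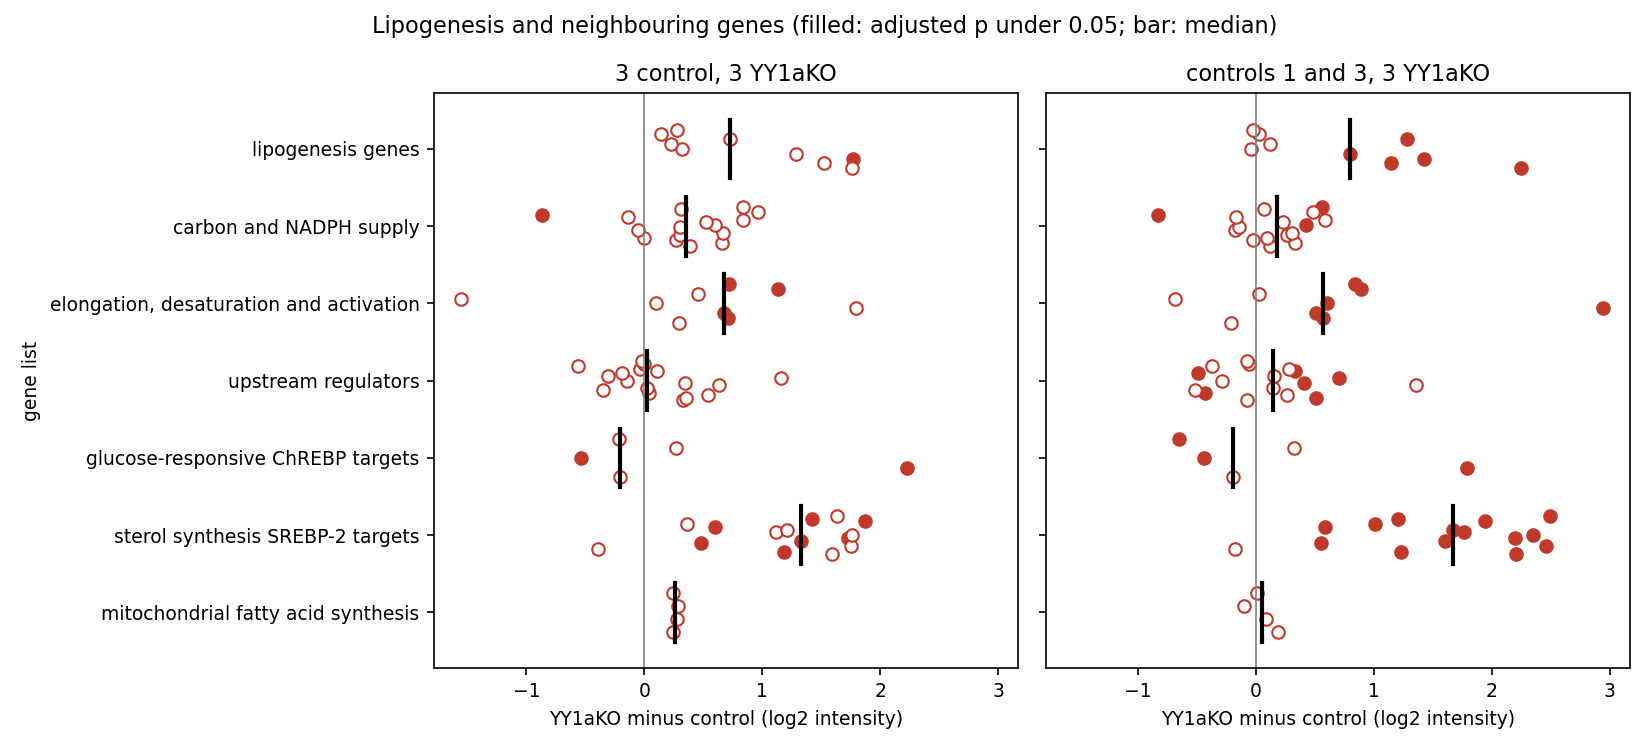
YY1aKO minus control (log2 intensity) of each tested gene in the lipogenesis list and 6 neighbouring lists, with 6 arrays (left) and without control replicate 2 (right); filled points have an adjusted p under 0.05 and black bars are medians. The medians are 0.73 for lipogenesis, 1.33 for sterol synthesis and 0.02 for upstream regulators with 6 arrays.

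The 3 tested genes most like Fasn over the 6 arrays, by Pearson's r of log2 values, were Ank (0.999), a membrane transporter named for progressive ankylosis, Haus3 (0.998), of the spindle augmin complex, and Scamp3 (0.998), a secretory carrier membrane protein. Ank read 831, 483 and 930.5 on control arrays against 1753, 2387 and 2389 on YY1aKO arrays. With 6 points in 2 groups such values are common, and 417 genes had r over 0.95 with Fasn. Among the lipogenesis genes, r with Fasn was 0.95 for Acss2 and Me1, 0.91 for the bright set of Scd1, 0.65 for Acly and 0.25 for Scd2. These are descriptions over arrays that share the 2 groups and control 2.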

How the data were processed

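Total RNA of 6 samples was hybridised to Affymetrix arrays, per the labels' protocols. For every array the authors deposited intensities of probe sets. Per the submitters' processing notes the method was RMA (version not given in the sources used here). RMA makes the arrays' distributions alike, so a change shared by most genes is removed. The deposited intensities are linear (6.09 to 30322), and their log2 was taken here.

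Groups came from the sample titles. Array controls (64) were left out. The annotation gives 1 symbol to 20380 probe sets, several to 691 and none to 1555. It names no genome build. limma 3.58.1 in R 4.3.3 (lmFit, eBayes, two-sided) was run on 7436 genes and again on 22626 probe sets, and tested on simulated data. Genes below the filter carry the p of a fit with no filter. Intervals are 95%.

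The members and lists were chosen with earlier results of these data known. Named are all members and probe sets, Yy1, up to 4 called genes per list (or the 2 with the smallest p), the 3 genes most like each called member, and 6 markers. Other names were chosen after their values were seen. Alternatives were 15 planned settings and 7 added after seeing the data.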

Additional observations from a re-analysis of the deposited data

How the results depend on the processing

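With 1 array left out in turn, the lipogenesis genes called higher ranged from 0 to 5 of 9, their probe sets from 0 to 8 of 20, and the other pathway genes from 0 to 27 higher and 0 to 5 lower of 66. The highest counts of each came without control 2, and without any single YY1aKO array no lipogenesis gene was called. Calls over all 7436 genes tested moved as well, from 1538 to 253, 33 and 24 without YY1aKO 1, 2 or 3. They were 1336, 3353 and 394 without control 1, 2 or 3. The loss of calls was thus not particular to the lipogenesis genes. With a replicate block, which sets the samples of equal number side by side, none of the 3 higher counts had a call (0 each), and 0 other pathway genes were lower. Of all 7436 genes tested only 54 were called with this block, against 1538 without it. Deviations of same-numbered samples from their group means correlated at -0.144, -0.125 and -0.122. With 3 arrays a group and control 2 apart, these values cannot show whether the numbers pair the samples. The mean of a gene's probe sets gave 3 lipogenesis genes higher. The brightest 40% of genes, an equal median on every array, and array weights gave 2 each. Array weights gave 11 probe sets and 22 other pathway genes higher, while calls over all genes tested rose from 1538 to 2628. The estimation of these weights stopped before its convergence tolerance. Other pathway genes lower were 0 without suffixed probe sets or among the brightest 40%, and 1 with no filter, renewed quantile normalization, an equal median or an intensity trend.

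Added after seeing the data, the dimmest probe set above the filter gave 3 lipogenesis genes higher and 0 other pathway genes lower, and 5 and 25 higher without control 2. Leaving out control 2 and control 1, control 3, YY1aKO 1, YY1aKO 2 or YY1aKO 3 gave 2, 3, 5, 2 and 2 lipogenesis genes higher, and 23, 24, 32, 23 and 24 other pathway genes higher. Without controls 1 and 2 there were 4 lower, and without controls 2 and 3 there were 5. Here the lone control is assumed to vary like the YY1aKO arrays.

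Of 216 values of the 10 genes under the 22 settings, 173 kept direction and side of the threshold, 26 passed where the fit with all arrays had not, 4 lost a call (Fasn) and 13 changed sign. These were of Thrsp (-0.02 without control 2, -0.11 with its dimmest set and no control 2, and -0.06, -0.10 and -0.16 without control 2 and control 1, YY1aKO 2 or YY1aKO 3), Srebf1 (-0.072, -0.06 and -0.0052 without control 2 and control 3, YY1aKO 2 or YY1aKO 3) and Mlxipl (-0.05 without control 2, again as -0.045 in the dimmest-set setting without control 2 since it has 1 set, and -0.11, -0.23 and -0.19 without control 2 and control 1, YY1aKO 2 or YY1aKO 3). None of these passed in any setting, with adjusted p of 0.077 or more in limma. With 1 array left out the differences ran from -0.02 to 0.50 for Thrsp, from 0.02 to 0.25 for Srebf1 and from -0.05 to 0.66 for Mlxipl. The cause of these shifts was not tested.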

Other observations

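Several genes next to the lipogenesis genes, chosen after their values were seen, had their highest control in control 2. Elovl6, the elongase that acts on palmitate made by Fasn, read 255, 3089 and 314 on control arrays against 1320, 3191 and 2456 on YY1aKO arrays. Its difference was 1.80 ± 1.00 (adjusted p = 0.24 in limma), and 2.95 without control 2 (adjusted p = 0.0026). Mid1ip1, the relative of Thrsp that helps acetyl-CoA carboxylase to polymerise, read 568, 4175 and 1502 on control arrays against 1495, 2824 and 3140.2 on YY1aKO arrays, with a difference of 0.63 ± 0.74 (adjusted p = 0.58) and 1.36 without control 2 (adjusted p = 0.064). Scd3, a further desaturase below the filter, read 30.1, 45.9 and 29.7 on control arrays against 62.0, 81.6 and 154 on YY1aKO arrays, with 1.42 ± 0.37 (adjusted p = 0.066 in the limma fit with no filter) and 1.62 without control 2 (adjusted p = 0.027). Like Acaca, it read lowest of its group in YY1aKO 1 and highest in YY1aKO 3.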
